A study of Danio rerio with 35 samples.

Results

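The chaperones of the cytosol and nucleus, their partner proteins and the heat shock factors were read out of messenger RNA counts from whole hearts of adult zebrafish. Members were chosen by gene symbol, not by value: symbols of the chaperonin, Hsp70, Hsp110, Hsp90, small heat shock, J-domain and BAG families and of hsf1 and hsf2, without hspa5, hspa9, dnajb9, dnajb11 and dnajc3 genes, whose products work in the endoplasmic reticulum or mitochondria. The rule found 77 of the 14781 genes listed and left out 7. They are 11 small heat shock genes, 9 Hsp70 and Hsp110 genes, 3 Hsp90 genes, 8 chaperonin genes, 36 J-domain genes, 6 BAG genes, 2 heat shock factors, and hspbp1 and hspbap1, which match the pattern for small heat shock genes but encode other proteins. A symbol rule is not a compartment: some J-domain genes it takes, such as dnaja3a and dnajc10, encode proteins of mitochondria or the endoplasmic reticulum. Hearts of fish overexpressing klf1, a zinc-finger factor known from red blood cell development, were compared with wild-type (WT) hearts, with 4 libraries each. The labels give the tissue as whole heart and the stage as adult. They do not say how, in which cells or for how long klf1 was overexpressed, whether animals were pooled, or whether each library stands for another animal, so the p-values measure a spread between libraries that may be technical.

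Chaperones bind proteins that are not yet folded or have lost their fold. Small heat shock proteins hold unfolding clients, the Hsp70 machine binds and releases them with ATP, J-domain proteins deliver clients to Hsp70 and start its ATP use, and Hsp110 and BAG proteins exchange its nucleotide. Hsp90 acts late, on kinases, receptors and, with the myosin chaperone Unc45b, on muscle myosin, while the ring-shaped chaperonin TRiC folds actin and tubulin. Hsf1 is the main activator of heat shock genes under stress. In heart muscle the small heat shock proteins and BAG3 are known for guarding the sarcomere, the contractile unit.

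The libraries held between 9829896 and 13083853 counts, and 10493 genes had enough counts to test. Levels are given as CPM, counts scaled to a common library size corrected by TMM, a method that sets the bulk of genes level between libraries. By that scale 3 counts, about the 95% upper bound for a gene at 0 in a library, were 0.179 to 0.221 CPM in klf1 libraries and 0.345 to 0.378 CPM in WT libraries. This bound covers counting error only, not reads lost through annotation or the way of counting. The overexpressed gene, klf1, stood at 595, 655, 733 and 602 CPM in klf1 hearts against 174, 268, 296 and 128 CPM in WT hearts (log2 fold change 1.58 ± 0.24 SE, edgeR adjusted p = 0.000126). The scaling bears on direction here: over all tested genes the median log2 fold change stood at 0.03 with TMM and at 0.75 with library totals alone. The TMM factors were 1.226 to 1.317 in klf1 libraries and 0.7495 to 0.8305 in WT libraries. Library totals leave these factors out, which raised the log2 fold change of every tested member. Under them a higher call could hardly be lost, while a lower call could. Changes below are relative to the TMM scale. Defining genes of heart muscle were present in all libraries, but the summed level of the 7 cardiomyocyte markers in the table was 24900 to 40000 CPM in klf1 hearts and 190000 to 227000 CPM in WT hearts, with 6 of 7 lower. Of 10 macrophage and granulocyte markers 9 were higher (summed level 1070 to 1430 CPM against 248 to 520 CPM), of 8 fibroblast and epicardial markers 6 were higher (1360 to 2390 CPM against 610 to 807 CPM), and all 8 markers of proliferating cells were higher (888 to 1180 CPM against 52.9 to 91.1 CPM). Among the last, ccna2 and cdk1 had enough counts to test only through the klf1 libraries, where they are high. Their calls are therefore no separate evidence of a rise. Of 7 endothelial markers 4 were lower (960 to 1270 CPM against 1110 to 1640 CPM), of 3 smooth muscle markers 1 was higher (245 to 331 CPM against 156 to 232 CPM), and of 3 erythroid markers 1 was lower (657 to 1120 CPM against 682 to 1350 CPM). Beside these, 32.2% of all tested genes were called higher and 29.4% lower. The smooth muscle and erythroid shares, 33.3% each, lie near that background. With library totals, which favour higher calls, all of these marker calls stood except 3 of the 4 endothelial and the erythroid one. The part of these cell types in the chaperone results was not tested, and in whole hearts fewer cells of a type and less RNA per cell cannot be told apart.

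The chaperones did not move as a block. Calls were made where the p of edgeR's quasi-likelihood test, adjusted over all genes, was under 0.05. Of the 72 tested members 18 were called higher and 25 lower in klf1 hearts, 43 in all, where the background among all tested genes was 32.2% higher, 29.4% lower and 61.6% in all. The members' shares, 25% higher and 34.7% lower, lie near that background, and their median log2 fold change was -0.12. The families and single genes differed widely, from 6.28 for hspb9, which had enough counts to test only in klf1 libraries, to -3.75 for hspb6. hsp70.1 and dnajb5, both called higher, likewise had enough counts to test only through the klf1 libraries. Of the calls, 7 higher and 9 lower members reached 1 on the log2 scale, against 18% and 15.4% of all tested genes. klf1 and WT libraries did not overlap for 17 higher and 21 lower members (29.8% and 27.2% of all tested genes, 57% in all). With library totals alone, 48 members were called higher and 9 lower (background 65.1% and 13.3%). All 18 higher calls stayed higher, which the upward shift under that setting made near certain, and 9 of the 25 lower calls stayed lower. Those 9 were the small heat shock genes hspb2, hspb3, hspb6 and cryabb, the J-domain genes dnaja3a, dnajc15, dnajc28 and dnajc4, and hsf1. Counted as raw reads, all members together took 2.49 to 2.78% of the counts in klf1 libraries and 1.25 to 1.35% in WT libraries. Of the 5 members not tested, cct2 and dnaja3b were listed at 0 in all libraries, and cryaba, hspb15 and dnajb13 had at most 3 counts over all 8.

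**Figure D1:**
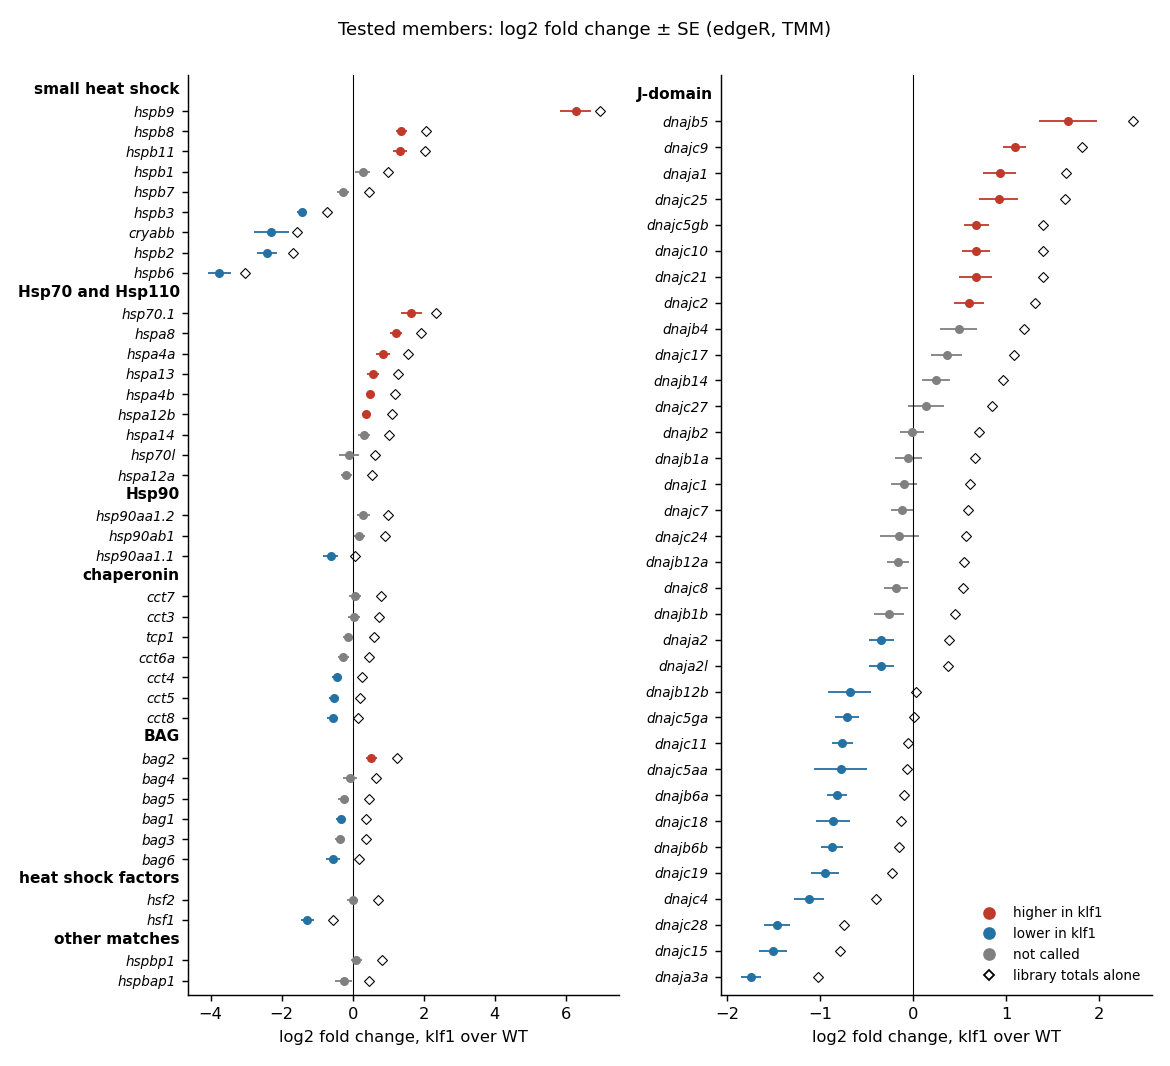
Log2 fold change of klf1 over WT hearts for each of the 72 tested members, with its standard error (edgeR, TMM scaling), by family; open diamonds give the value with library totals alone. Members called higher (18) lie right of 0 and members called lower (25) left of it, and the diamonds lie further right for every gene.

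The small heat shock genes split most sharply of all families. Of 9 tested, 3 were higher and 4 lower, each by a log2 fold change over 1 in size. hspb1 and hspb7 were not called. The calls are shares of 33.3% and 44.4%, beside 32.2% and 29.4% of all tested genes. Calls of that size made up 18% (higher) and 15.4% (lower) of all tested genes. Of the higher genes, hspb9 had enough counts to test only in klf1 libraries. Under every scaling tried, library totals included, these 7 calls kept their direction and their side of the threshold. Library totals could hardly have cost the 3 higher genes their calls. For hspb9 the kept call is no separate evidence of a rise. The family's median was -0.27.

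On the rising side was hspb8, whose protein works with Bag3 to send damaged filaments for degradation in mammals. It had 892, 605, 690 and 612 CPM in klf1 libraries 1 to 4, against 287, 282, 276 and 242 CPM in WT libraries 1 to 4. Every klf1 library stood far above every WT library. The rise was 2.58-fold (log2 fold change 1.37 ± 0.16 SE, edgeR adjusted p = 1.69e-05). A second riser, hspb11, a fish small heat shock gene, had 3840, 3070, 2430 and 2410 CPM in klf1 hearts, against 1040, 1430, 1200 and 991 CPM in WT hearts. It too rose without overlap, by 2.52-fold (1.33 ± 0.2, adjusted p = 0.000118 by edgeR). hspb9 was present in all klf1 libraries, with 20, 10.2, 17.2 and 12.3 CPM, and nearly absent from WT libraries, with 0, 0.252, 0.362 and 0.123 CPM. It had enough counts to test only in klf1 libraries, the group where it is high. Its edgeR adjusted p of 2.5e-07 is therefore no separate evidence of a rise. The counts were 882 in the klf1 libraries together and 6 in the WT libraries. The ratio was 81 after scaling, with a 95% exact interval of 37 to 221 that covers counting error only.

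The 4 genes that fell were hspb6, hspb2, hspb3 and cryabb. hspb6, also known as Hsp20, had 28.4, 39.2, 19.3 and 21.9 CPM in klf1 hearts and 589, 260, 232 and 386 CPM in WT hearts. WT library 1 was highest, and every WT library was above every klf1 library. The fall was 13.5-fold (log2 fold change -3.75 ± 0.33 SE, edgeR adjusted p = 1.42e-06). hspb2 had 11.7, 19.5, 5.52 and 12.1 CPM in klf1 hearts and 66.6, 61.3, 76 and 56.4 CPM in WT hearts, a 5.31-fold fall (-2.41 ± 0.29, adjusted p = 1.64e-05 by edgeR). hspb3, whose product assembles with that of hspb2 in mammalian muscle, fell to 7.3, 7.16, 6.28 and 5.3 CPM in klf1 hearts, against 17.6, 18.5, 18.2 and 15.7 CPM in WT hearts (2.69-fold, adjusted p = 4.13e-06 by edgeR). The alpha-B crystallin gene cryabb read 3.25, 4.6, 1.17 and 7.74 CPM in klf1 libraries and 36.1, 21, 13.5 and 12.4 CPM in WT libraries, a 4.9-fold fall with wide spread (-2.29 ± 0.5, adjusted p = 0.00261 by edgeR). hspb2 and cryabb are neighbours in RefSeq's GRCz12tu annotation and their annotated spans overlap there. The strand setting of the counting is not given in the sources used here, so reads of this pair may be shared and both values are uncertain. These falls stand beside the cardiomyocyte marker values given above.

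The 2 members that were not called are also known from heart muscle. hspb7, required for a normal heart in zebrafish and mouse, had 2010, 2110, 1650 and 1740 CPM in klf1 hearts and 2640, 2180, 2220 and 2000 CPM in WT hearts. The groups overlapped, and the log2 fold change of -0.27 ± 0.16 was not called (adjusted p = 0.17 by edgeR). It was 0.45 and called higher with library totals. hspb1, the Hsp27 gene, had 1630, 1140, 1110 and 1150 CPM in klf1 hearts and 1120, 1070, 1220 and 718 CPM in WT hearts, with klf1 library 1 and WT library 4 apart from the rest. Its value was 0.28 ± 0.2 (adjusted p = 0.248 by edgeR), or 1 and called higher with library totals.

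**Figure D2:**
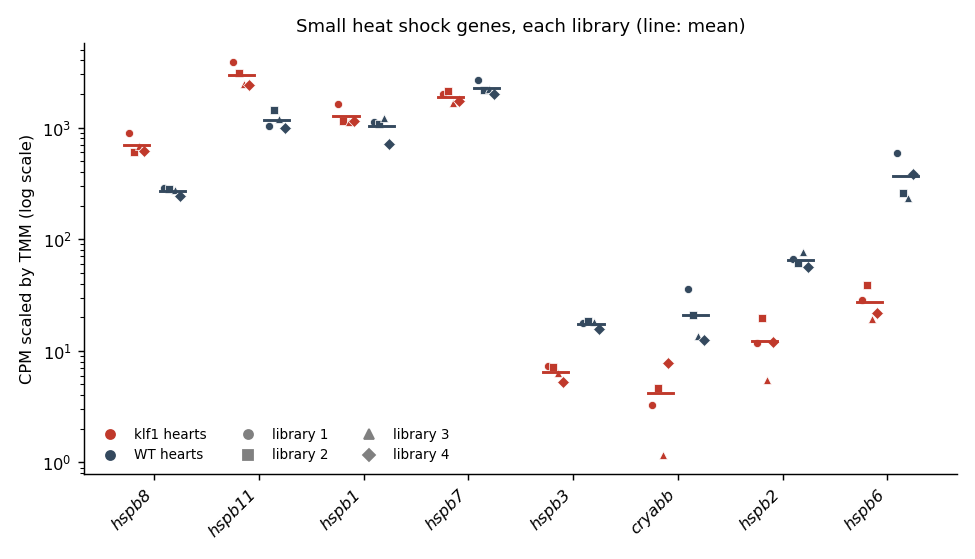
CPM of the tested small heat shock genes (log axis) in each klf1 and WT library, with the mean of each genotype as a line; hspb9, at 0 in a WT library, is not drawn. hspb8 and hspb11 are higher in all klf1 libraries, hspb1 and hspb7 overlap, and hspb3, cryabb, hspb2 and hspb6 are lower in all klf1 libraries.

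The Hsp70 and Hsp110 genes leaned the other way, with 6 of 9 tested members higher and none lower. These are shares of 66.7% and 0%, beside 32.2% and 29.4% of all tested genes. Of the 6 rises, 2 reached 1 on the log2 scale, as did 18% of all tested genes. Of these 2, hsp70.1 had enough counts to test only through the klf1 libraries. Lower calls also numbered 0 with DESeq2, with limma-voom and at an unadjusted edgeR p under 0.05. The family's median log2 fold change was 0.49, against 0.03 over all tested genes. All 6 rises stood under every scaling tried, of which library totals could hardly have cost them their calls. For hsp70.1 the kept call is no separate evidence of a rise.

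Constitutive Hsp70, encoded by hspa8, is the housekeeping form that also strips clathrin from vesicles. It had 5350, 3420, 4720 and 4570 CPM in klf1 hearts, against 1920, 1650, 2130 and 2040 CPM in WT hearts. klf1 library 2 was the lowest of its genotype and still above every WT library. The rise was 2.33-fold (log2 fold change 1.22 ± 0.18 SE, edgeR adjusted p = 0.000101). hsp70.1, a stress-induced Hsp70 gene, was 3.13-fold higher (1.65 ± 0.3, adjusted p = 0.000482 by edgeR) but from few reads. It had 5.31, 4.2, 4.14 and 5.77 CPM in klf1 hearts and 1.27, 1.51, 0.844 and 2.57 CPM in WT hearts. It had enough counts to test only through the klf1 libraries, the group where it is high. Its adjusted p is therefore no separate evidence of a rise. hsp70l, a close relative of hsp70.1 and the other stress-induced form, was not called. It read 6.42, 12.7, 8.08 and 15.6 CPM in klf1 hearts and 15, 10.1, 7.12 and 13.8 CPM in WT hearts, a full overlap. How reads that fit both copies were counted is not given in the sources used here, so the values of this pair are uncertain.

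Both Hsp110 genes, which exchange nucleotide on Hsp70, were higher. hspa4a had 242, 208, 238 and 193 CPM in klf1 hearts and 141, 141, 72.4 and 131 CPM in WT hearts, a 1.81-fold rise (log2 fold change 0.86 ± 0.2 SE, edgeR adjusted p = 0.00255). WT library 3 stood well below the other WT libraries, and without it the log2 fold change was 0.67 and still called. hspa4b had 163, 153, 167 and 145 CPM in klf1 hearts and 114, 121, 99.8 and 114 CPM in WT hearts, a 1.4-fold rise. Smaller rises were those of hspa13, an Hsp70 relative of microsomes (12.5 ± 1.97 CPM in klf1 hearts and 8.41 ± 1.18 CPM in WT hearts, SD, n = 4), and hspa12b, a distant relative expressed in mammalian endothelium (213 ± 5.41 CPM and 163 ± 16.9 CPM). Without WT library 1 hspa12b was no longer called (0.33, adjusted p = 0.0624 by edgeR). hspa14, whose product binds ribosomes, had 35.4 ± 9.52 CPM in klf1 hearts and 28.4 ± 2.98 CPM in WT hearts and hspa12a 7.54 ± 1.4 CPM and 8.5 ± 0.55 CPM, neither called. The value of hspa14 was 0.12 and not called without klf1 library 1, 0.45 and called higher without klf1 library 4, and 1.03 and called higher with library totals.

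The 3 Hsp90 genes showed no shared shift. hsp90ab1, the constitutive Hsp90 gene, had 3400, 4010, 4690 and 4700 CPM in klf1 hearts and 3840, 3770, 3200 and 3970 CPM in WT hearts, and was not called (log2 fold change 0.19 ± 0.17 SE, edgeR adjusted p = 0.367). Of the neighbouring alpha genes, hsp90aa1.1, required in zebrafish for myosin folding in skeletal muscle, was lower, with 226, 120, 207 and 183 CPM in klf1 hearts and 293, 292, 204 and 345 CPM in WT hearts (-0.62 ± 0.21, adjusted p = 0.0228 by edgeR; 0.08 and not called with library totals). The groups overlapped at WT library 3, and without WT library 4 it was no longer called (-0.52, adjusted p = 0.0689 by edgeR). The stress-responsive hsp90aa1.2 had 71.6, 73.7, 81.6 and 93.6 CPM in klf1 hearts and 71, 63.3, 43.4 and 82.8 CPM in WT hearts, not called (0.3 ± 0.18). With library totals hsp90ab1 (0.9) and hsp90aa1.2 (1.01) were called higher. Reads that fit both alpha copies could be split between them.

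Of 26 tested co-chaperones of Hsp90 and Hsp70, 8 were higher and 7 lower, shares of 30.8% and 26.9% that lie near the background of 32.2% and 29.4%. The largest fall was that of unc45b, the myosin chaperone of striated muscle, with 97.4 ± 16.2 CPM in klf1 hearts and 631 ± 56.1 CPM in WT hearts (SD, n = 4), a log2 fold change of -2.7 ± 0.16 (SE, adjusted p = 1.08e-07 by edgeR). Its general-cell paralog unc45a moved the opposite way, with 7.09 ± 1.5 CPM in klf1 hearts and 2.03 ± 0.416 CPM in WT hearts (1.8 ± 0.23). The immunophilin fkbp5, a glucocorticoid-responsive partner of Hsp90, fell (-1.57 ± 0.23), as did sgta, which handles tail-anchored membrane proteins (-1.45 ± 0.19). A second immunophilin, fkbp8, fell with TMM (-0.77 ± 0.11) and was not called with library totals (-0.06). ptges3b, a form of the Hsp90 stabiliser p23, rose (1.51 ± 0.14), and ttc4 (0.69 ± 0.2) and nudc (0.43 ± 0.13), which also bind Hsp90, rose less. With library totals, which favour higher calls, all 8 higher calls stood and 3 of the 7 lower ones, those on unc45b, fkbp5 and sgta. The linker between Hsp70 and Hsp90, stip1, had 133 ± 5.18 CPM and 138 ± 18.1 CPM and was not called, and cdc37, the kinase adaptor, was listed at 0 throughout.

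**Figure D3:**
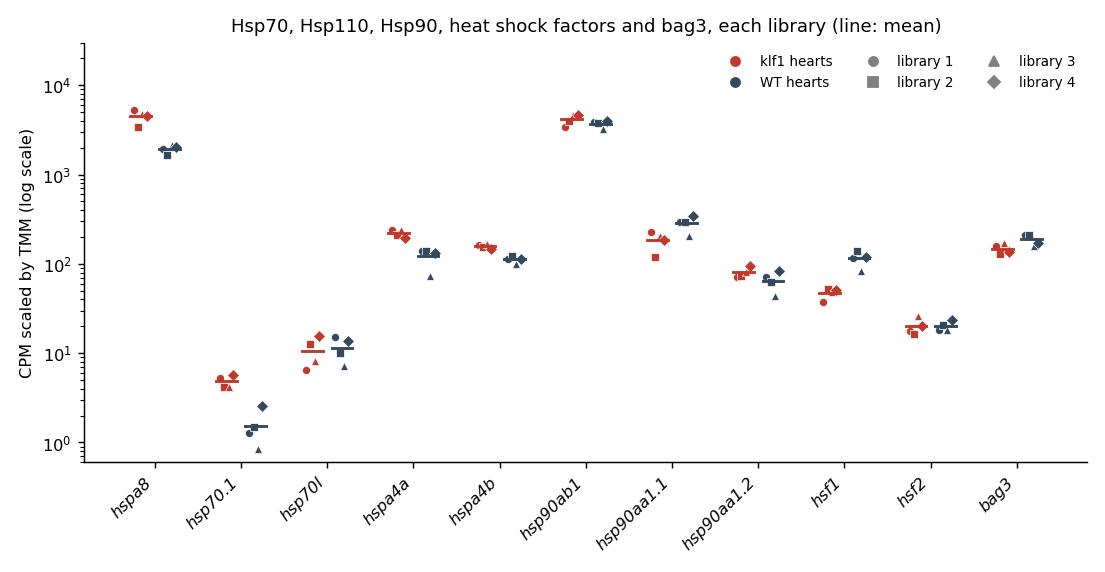
CPM (log axis) of Hsp70, Hsp110 and Hsp90 genes, both heat shock factors and bag3 in each klf1 and WT library, with the mean of each genotype as a line. hspa8, hsp70.1, hspa4a and hspa4b are higher in all klf1 libraries, hsf1 is lower in all klf1 libraries, and the other genes overlap.

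The chaperonin TRiC is a double ring of 8 different subunits, encoded by tcp1 and the cct genes. Of the 7 tested subunits 3 were lower and none higher, and the median was -0.26 on the log2 scale. These are shares of 42.9% and 0% of only 7 genes, beside 29.4% and 32.2% of all tested genes. Higher calls also numbered 0 with DESeq2, with limma-voom and at an unadjusted edgeR p under 0.05. The largest was a 1.48-fold fall. With library totals none of the 7 was lower and 4 were higher, beside 13.3% and 65.1% of all tested genes under that setting. cct2 was listed at 0 in all 8 libraries, although the ring is known to need it in every cell, so nothing can be said of it from these counts.

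cct8 had 391, 309, 314 and 347 CPM in klf1 hearts and 458, 466, 581 and 505 CPM in WT hearts (log2 fold change -0.56 ± 0.15 SE, edgeR adjusted p = 0.00512; 0.15 with library totals). cct5 had 305, 278, 260 and 283 CPM in klf1 hearts and 405, 385, 474 and 354 CPM in WT hearts (-0.52 ± 0.14, adjusted p = 0.0059 by edgeR; 0.2 with library totals). cct4 had 343, 266, 266 and 269 CPM in klf1 hearts and 388, 366, 413 and 384 CPM in WT hearts (-0.44 ± 0.14, adjusted p = 0.015 by edgeR; 0.27 with library totals). The genotypes did not overlap for these 3 subunits, though the call on cct4 was lost without klf1 library 4 (-0.41, adjusted p = 0.0511 by edgeR) and with upper-quartile scaling (-0.36, adjusted p = 0.0535).

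For the others the libraries overlapped. cct6a had 581, 453, 494 and 520 CPM in klf1 hearts and 593, 564, 732 and 570 CPM in WT hearts, and tcp1 162, 137, 183 and 136 CPM and 195, 143, 178 and 159 CPM. cct3 had 368, 267, 280 and 293 CPM in klf1 hearts and 273, 259, 384 and 264 CPM in WT hearts, and cct7 402, 290, 291 and 304 CPM and 282, 279, 385 and 271 CPM. klf1 library 1 and WT library 3 were the highest of their genotype for 6 of the 7 subunits. Without both of these libraries cct6a was also called lower (-0.25, adjusted p = 0.0427 by edgeR), an alternative chosen after the data were seen.

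A subunit's share of the chaperonin counts in its own library does not depend on the scaling between libraries, and these shares were not constant. cct3 took 13.7 ± 0.5% of the chaperonin counts in klf1 hearts and 10.95 ± 0.83% in WT hearts, and cct7 14.58 ± 0.81% and 11.3 ± 0.66% (SD, n = 4). cct8 took 15.47 ± 0.46% in klf1 hearts and 18.8 ± 1.05% in WT hearts, and cct5 12.87 ± 0.83% and 15.12 ± 0.71%. For these 4 genes the genotypes did not overlap, while cct4, cct6a and tcp1 overlapped. These shares are a description without a test. cct7 and hspa12b are neighbours in RefSeq's GRCz12tu annotation, without overlap of their spans.

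**Figure D4:**
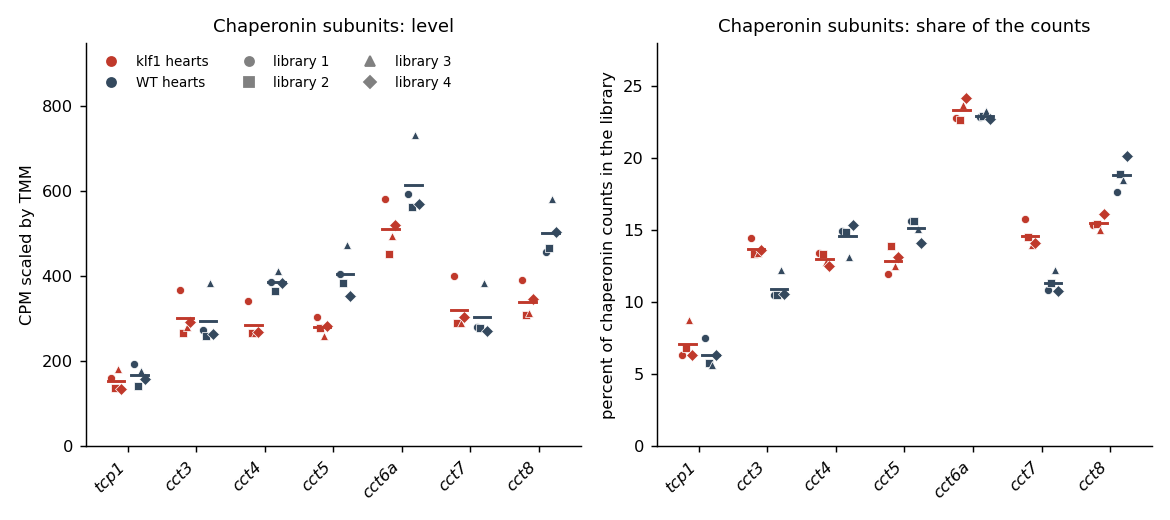
Left, CPM of the 7 chaperonin subunits with counts, in each klf1 and WT library; right, each subunit's percent of the chaperonin counts in its library; lines are means. The levels of cct4, cct5 and cct8 are lower in all klf1 libraries, and the shares of cct3 and cct7 are higher in all klf1 libraries.

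Partners of the chaperonin were mixed. Of 10 tested genes of prefoldin, which hands actin and tubulin to TRiC, and of related cofactors, 2 were higher and 3 lower. These are shares of 20% and 30%, beside 32.2% and 29.4% of all tested genes. pfdn2 (66 ± 10.6 CPM in klf1 hearts and 37.6 ± 4.19 CPM in WT hearts, SD, n = 4; log2 fold change 0.81 ± 0.14 SE) and pfdn1 (0.65 ± 0.17) rose, and the prefoldin-like gene pdrg1 fell (-1.09 ± 0.16). Its relatives uri1 (-0.48 ± 0.11) and uxt (-0.49 ± 0.16) fell with TMM and were not called, at 0.24 and 0.23, with library totals. Of 5 tubulin folding cofactors 3 were lower (60%) and none higher. tbcela had 6.22 ± 0.715 CPM in klf1 hearts and 16.6 ± 3.67 CPM in WT hearts (-1.42 ± 0.17). The other lower genes were tbce (-0.33 ± 0.12, but 0.38 and called higher with library totals) and tbcc (-0.42 ± 0.17, and 0.3 and not called with library totals).

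The J-domain genes are the largest family, and 8 of 34 tested were higher, 14 lower and 12 not called. The called shares were 23.5% higher and 41.2% lower, beside 32.2% and 29.4% of all tested genes. Their median was -0.16 on the log2 scale. All 8 rises stood under each other scaling, filter, tool and left-out library that could test them. Library totals, which raise all values, are no separate support for these rises. dnajb5 did not pass the filter of 50 counts in 4 libraries and had no test there. It passed the main filter only through the klf1 libraries, where it is high. That its call stood is therefore no separate evidence of a rise. Of the 14 falls, 4 stood with library totals and 10 did not, among which dnaja2 and dnaja2l turned into called rises.

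dnajc9, a co-chaperone that escorts histones in mammals, rose to 41.8, 36.8, 37.6 and 35.6 CPM in klf1 hearts, against 18.4, 18.9, 18.5 and 15.6 CPM in WT hearts. The libraries of each genotype lay close together and far apart between genotypes (log2 fold change 1.09 ± 0.12 SE, edgeR adjusted p = 7.02e-06). In the same libraries the 8 markers of proliferating cells had a median log2 fold change of 4.64, and their part in the value of dnajc9 was not tested. Among these markers ccna2 and cdk1 had enough counts to test only through the klf1 libraries. dnaja1, a main cytosolic partner of Hsp70, had 58, 47, 50.1 and 42.9 CPM in klf1 hearts and 27.7, 25.8, 17.3 and 32.8 CPM in WT hearts, a 1.91-fold rise (0.93 ± 0.18, adjusted p = 0.000759 by edgeR). dnajb5 had 4.35, 2.76, 2.9 and 3.51 CPM in klf1 hearts and 0.69, 1.64, 0.844 and 1.1 CPM in WT hearts. Its log2 fold change of 1.66 ± 0.31 was the highest of the family, on 35 counts in all WT libraries. It passed the filter for testing only through the klf1 libraries, the group where it is high. Its call is therefore no separate evidence of a rise. dnajc5gb, of the cysteine string protein group that attends vesicle release, had 20.4, 16.3, 18.4 and 16.7 CPM in klf1 hearts and 10.5, 10.7, 12.1 and 11.5 CPM in WT hearts (0.68 ± 0.13). The remaining rises were dnajc25 (0.92 ± 0.21), the disulfide reductase of the endoplasmic reticulum dnajc10 (0.68 ± 0.15), dnajc21, a factor of ribosome maturation (0.67 ± 0.18), and dnajc2, the ribosome-bound partner of hspa14 (0.6 ± 0.16).

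The steepest falls among J-domain genes were led by dnaja3a, the J-protein of the mitochondrial Hsp70. It had 32.4, 35.5, 32.2 and 30.4 CPM in klf1 hearts and 120, 111, 99.9 and 104 CPM in WT hearts, a 3.34-fold fall (log2 fold change -1.74 ± 0.11 SE, edgeR adjusted p = 1.84e-07). dnajc15, of the inner mitochondrial membrane, had 25.8, 28.8, 20 and 23.3 CPM in klf1 hearts and 64.3, 66, 84.9 and 64.1 CPM in WT hearts (2.85-fold lower, adjusted p = 3.36e-06 by edgeR). dnajc28 had 6.34, 6.5, 6.01 and 7.14 CPM in klf1 hearts and 18.8, 15, 19.7 and 18.1 CPM in WT hearts (2.75-fold lower, adjusted p = 2.36e-06 by edgeR). dnajc4 had 22.6, 25.5, 20.4 and 33.8 CPM in klf1 hearts and 52.6, 59.3, 60 and 50.1 CPM in WT hearts (2.17-fold lower). None of these 4 overlapped between genotypes, and all 4 were also called lower with library totals. Others with mitochondrial products were dnajc19, of the import motor (-0.95 ± 0.15), and dnajc11, of the cristae (-0.76 ± 0.11), both called lower with TMM and not called with library totals (-0.23 and -0.05). This grouping by compartment was made after the values were seen and has no test.

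Among cytosolic forms dnajb6b, a suppressor of protein aggregation linked in its human form to a muscular dystrophy, had 126, 110, 106 and 113 CPM in klf1 hearts and 215, 213, 214 and 188 CPM in WT hearts (-0.87 ± 0.12, edgeR adjusted p = 4.62e-05; -0.15 and not called with library totals). Its paralog dnajb6a had 46.4, 51.4, 46.2 and 47.2 CPM in klf1 hearts and 92.6, 86.8, 80.8 and 76.2 CPM in WT hearts (-0.82 ± 0.11; -0.1 and not called with library totals). The Hsp70 partner dnaja2 had 292, 295, 282 and 282 CPM in klf1 hearts and 412, 348, 350 and 345 CPM in WT hearts, a small fall (-0.34 ± 0.13, adjusted p = 0.0345 by edgeR) that became a called rise of 0.38 with library totals. dnaja2l behaved likewise, with 105, 111, 86.8 and 117 CPM in klf1 hearts and 143, 131, 121 and 137 CPM in WT hearts (-0.34 ± 0.13, adjusted p = 0.0342 by edgeR; 0.37 and called higher with library totals). The other 4 lower genes lost their call with library totals: dnajc18 (-0.86), dnajc5aa (-0.78), dnajc5ga (-0.71; 0.01 there) and dnajb12b (-0.68; 0.03 there). With upper-quartile scaling and with no filter dnaja2 (-0.26 and -0.32) and dnaja2l (-0.26 and -0.32) were not called. Single libraries decided 4 of these calls. The call on dnaja2 was lost without klf1 library 3 or 4 or WT library 1, 2 or 4 (-0.37 to -0.28), and that on dnaja2l without klf1 library 3 or WT library 1, 2 or 4 (-0.36 to -0.25). dnajb12b lost its call without WT library 2 (-0.64) or 4 (-0.56), and dnajc5aa without klf1 library 1 or 2 or WT library 1, 2 or 4 (-0.79 to -0.58).

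Of the heat-inducible partners of Hsp70, dnajb1a, dnajb1b and dnajb4 did not pass the test with TMM. dnajb1a, an Hsp40 gene, had 17, 18.5, 20.7 and 17.6 CPM in klf1 hearts and 17.6, 19.9, 15.4 and 23.5 CPM in WT hearts, and dnajb1b 25.9, 23.3, 24.1 and 21.7 CPM and 28, 23.3, 24.4 and 37.9 CPM. Their adjusted p values were 0.788 and 0.173 by edgeR. dnajb4 had 45.5, 23.1, 26.8 and 27.6 CPM in klf1 hearts and 21.1, 24.8, 17.9 and 23.8 CPM in WT hearts, with klf1 library 1 far above the rest (0.49 ± 0.2, adjusted p = 0.0558 by edgeR). Without klf1 library 1 its value was 0.22 and not called, and without klf1 library 2 it was 0.6 and called higher (adjusted p = 0.0288 by edgeR). It was also called higher with upper-quartile scaling (0.58), no filter (0.51) and the filter of 50 counts in 4 libraries (0.51). With library totals dnajb1a (0.66), dnajb1b (0.45) and dnajb4 (1.19) were all called higher. The other 9 not called were dnajc17, dnajb14, dnajc27, dnajb2, dnajc1, dnajc7, dnajc24, dnajb12a and dnajc8, with log2 fold changes of 0.36 to -0.18. With library totals all 9 were called higher (0.54 to 1.08), as were 65.1% of all tested genes under that setting. dnajc17 was also called higher with upper-quartile scaling (0.43) and without klf1 library 1 (0.43), and dnajb14 without WT library 3 (0.37).

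BAG proteins release clients from Hsp70 and link it to other machines. bag2, which blocks the ubiquitin ligase of the Hsp70 complex, had 49, 57.6, 46 and 51.5 CPM in klf1 hearts and 41.1, 40.3, 26.2 and 33.8 CPM in WT hearts, a 1.44-fold rise (log2 fold change 0.53 ± 0.15 SE, edgeR adjusted p = 0.00973) that stood under every other scaling, filter, tool and left-out library tried. bag3, the partner of Hspb8 in muscle, had 157, 130, 170 and 135 CPM in klf1 hearts and 209, 212, 160 and 172 CPM in WT hearts. It fell just short of a call with edgeR (-0.35 ± 0.14, adjusted p = 0.0543) and was called lower by DESeq2 (-0.36, adjusted p = 0.0296) and higher with library totals (0.37). edgeR also called bag3 lower with the size factors of DESeq2 (-0.37). The same held without klf1 library 1 (-0.39), klf1 library 3 (-0.41) or WT library 3 (-0.43). The lower calls on bag1 and bag6 were weak. bag1 had 23.5, 22.1, 21.1 and 20 CPM in klf1 hearts and 27.8, 24.2, 32.3 and 24.8 CPM in WT hearts (-0.33 ± 0.13, adjusted p = 0.0376 by edgeR). bag6, which guards newly made membrane proteins, had 82.3, 127, 121 and 117 CPM in klf1 hearts and 195, 182, 109 and 169 CPM in WT hearts, overlapping at WT library 3 (-0.55 ± 0.19, adjusted p = 0.027 by edgeR). The bag1 call was lost without klf1 library 2, 3 or 4 or WT library 1 or 3 (-0.35 to -0.25), and the bag6 call without klf1 library 1 or WT library 1, 2 or 4 (-0.54 to -0.44). With library totals bag1 was called higher (0.39) and bag6 was not called (0.17). bag4 and bag5 were not called (-0.07 and -0.25), though bag5 was called lower without WT library 1 (-0.39). The other pattern matches, hspbp1, a nucleotide exchange factor of Hsp70 (0.11 ± 0.16), and hspbap1 (-0.25 ± 0.24), were not called either.

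The heat shock factors differed from each other. hsf1 fell to 37.9, 52.7, 48.7 and 51.3 CPM in klf1 hearts, against 117, 140, 83.5 and 120 CPM in WT hearts, with klf1 library 1 and WT library 3 the lowest of their genotypes. The groups did not overlap, and the fall was 2.42-fold (log2 fold change -1.27 ± 0.17 SE, edgeR adjusted p = 3.89e-05). It was smaller with library totals, at -0.56, and still called (adjusted p = 0.0161 by edgeR). hsf2, a factor known from development, read 17.6, 16.6, 26 and 20.4 CPM in klf1 hearts and 18.2, 20.7, 18.2 and 23.5 CPM in WT hearts, not called, with a log2 fold change of 0 to 2 decimals and a standard error of 0.16 (0.71 and called higher with library totals). These are levels of messenger RNA. The activity of Hsf1, which is set largely by its release from chaperones and its modification, was not measured.

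Of 12 tested regulators of heat shock factors and other stress-induced genes, 6 were higher and 2 lower. These are shares of 50% and 16.7%, beside 32.2% and 29.4% of all tested genes. The list's median was 0.69 on the log2 scale. The collagen chaperone gene serpinh1a, a heat shock gene, had 146 ± 28 CPM in klf1 hearts and 42 ± 4.51 CPM in WT hearts (SD, n = 4; 1.79 ± 0.16 SE, edgeR adjusted p = 1.39e-06), and serpinh1b rose as well (1.1 ± 0.16). In the same libraries col1a1a, a collagen client of fibroblasts, had 745 ± 267 CPM in klf1 hearts and 285 ± 47.4 CPM in WT hearts. The polyubiquitin gene ubc rose to 887 ± 42.2 CPM in klf1 hearts, against 534 ± 36.5 CPM in WT hearts (0.73 ± 0.13), whereas ubb fell to 153 ± 6.79 CPM, against 400 ± 24.5 CPM (-1.39 ± 0.12). The heme oxygenase gene hmox1a rose (1.13 ± 0.26), and the autophagy receptor gene sqstm1 fell with TMM (-0.75 ± 0.12) and was not called with library totals (-0.04). Of 5 genes of ubiquitin-directed turnover 2 were lower (40%) and none higher, beside 29.4% and 32.2% of all tested genes. Both lower genes are for cofactors of the same segregase: ufd1l (-0.54 ± 0.13, and 0.18 and not called with library totals) and nploc4 (-0.35 ± 0.13, but 0.37 and called higher with library totals).

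Chaperones outside the rule, in the endoplasmic reticulum and the mitochondria, differed by compartment. This split has no test, and the list was chosen with earlier results of these data known. Of all tested genes 32.2% were higher and 29.4% lower. Here 10 of 15 tested genes were higher (66.7%) and 4 lower (26.7%), with 1 not called. Among those of the endoplasmic reticulum, hsp90b1, its Hsp90, had 478 ± 38.1 CPM in klf1 hearts and 148 ± 17.4 CPM in WT hearts (SD, n = 4), a log2 fold change of 1.69 ± 0.14 (SE, adjusted p = 1.01e-06 by edgeR). calr3b (1.64 ± 0.14), dnajb11 (1.6 ± 0.14) and calr (1.36 ± 0.13) rose too. All 4 lower genes were those of mitochondria. trap1, the mitochondrial Hsp90, had 47.3 ± 8.72 CPM in klf1 hearts and 119 ± 14.8 CPM in WT hearts (-1.33 ± 0.15), and hspa9 (-1.17 ± 0.18), the Hsp70 that works with the product of dnaja3a, fell as well. The mitochondrial chaperonin genes hspe1 (-1.06 ± 0.18) and hspd1 (-0.63 ± 0.17) fell with TMM and were not called with library totals (-0.35 and 0.08).

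Paralogs were compared within each library, so that the scaling between libraries played no part. The log2 ratio of counts was formed for the 7 pairs of tested members whose symbols differ only in a final letter or number. An exact two-sided permutation test over the 70 assignments gave p = 0.0286, the smallest this design allows, for 4 pairs, and after Benjamini-Hochberg adjustment over 7 pairs each stood at 0.05, not under it. The ratio of dnajc5ga to dnajc5gb was 0.95, 1.32, 1.08 and 0.85 on the log2 scale in klf1 libraries and 2.75, 2.51, 2.2 and 2.3 in WT libraries, a difference of -1.39 with every klf1 library below every WT library. For hsp90aa1.1 to hsp90aa1.2 the ratio was 1.66, 0.7, 1.34 and 0.97 in klf1 libraries and 2.05, 2.21, 2.23 and 2.06 in WT libraries, a difference of -0.97. hspa12a to hspa12b, which are also separate genes in mammals, differed by -0.58, with the nearest klf1 and WT libraries at -4.48 and -4.45, and hspa4a to hspa4b differed by 0.42, or by 0.24 without WT library 3. The pairs dnajb12a to dnajb12b (0.52, exact permutation p = 0.229), dnajb1a to dnajb1b (0.19, p = 0.257) and dnajb6a to dnajb6b (0.06, p = 0.514) overlapped between genotypes.

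**Figure D5:**
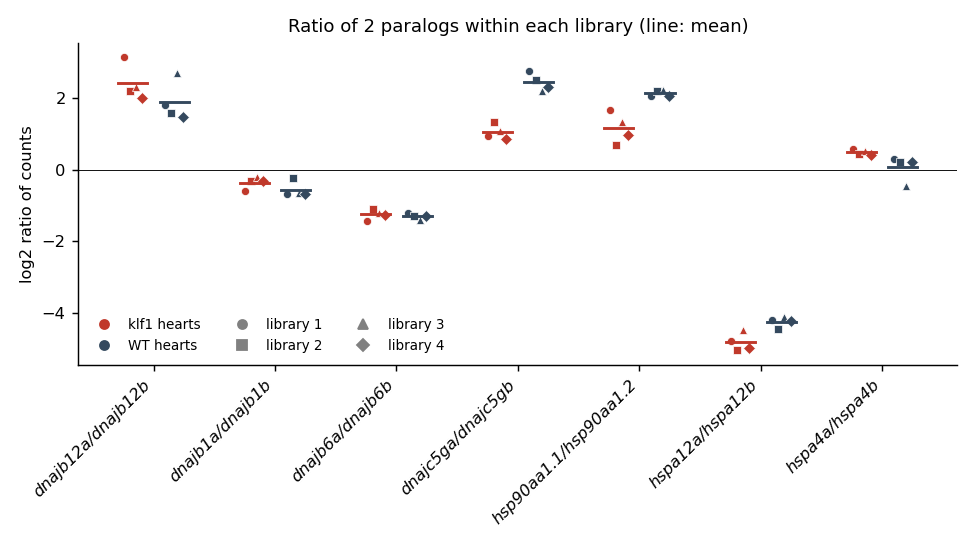
Log2 ratio of the counts of 2 paralogs in each klf1 and WT library, with the mean of each genotype as a line. The ratios of dnajc5ga to dnajc5gb, hsp90aa1.1 to hsp90aa1.2 and hspa12a to hspa12b are lower, and that of hspa4a to hspa4b higher, in all klf1 libraries.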

How the data were processed

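RNA of whole adult zebrafish hearts, with 4 libraries of klf1 overexpressing and 4 of WT fish, was made into libraries with a stranded mRNA kit, per the labels' protocols. The authors deposited raw counts per gene and library, whole numbers with no normalization, as the values show. From the submitters' processing notes come the names danRer10, Bowtie2 2.2.8 and deepTools 3.1.2, with no role stated. For RNA, which aligner, counter, gene models and strand mode were used is not given in the sources used here. Counts of single libraries equalled the joint table in 8 of 8 cases, and symbols were taken from it because 11 are written as dates in the single files. No pair of replicates was alike within counting noise (chi-square over degrees of freedom 6.71 to 45.7). Among WT libraries, pairs with library 3 gave 36.2 to 43.1 and the other pairs 6.71 to 9.37. Among klf1 libraries, pairs with library 1 gave 41.3 to 45.7 and the other pairs 17 to 36.1.

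In R 4.3.3, genes passing filterByExpr (10493) were scaled by TMM and tested with edgeR 4.0.16 (two-sided glmQLFTest after a robust glmQLFit), with Benjamini-Hochberg adjustment over all of them and calls at 0.05. The standard error is the log2 fold change over the square root of F, which is approximate. The fit was tested on simulated data. Library totals ranged from 9829896 to 13083853 counts. Alternatives were other scalings, filters and tests (DESeq2 1.42.0, limma 3.58.1 voom), a fold threshold and leaving out libraries. Ratios of paralogs used a pseudocount of 0.5 and scipy 1.17.1. RefSeq's GRCz12tu table, used for neighbours only, matched 77 of 77 members. The members and lists were chosen with earlier results of these data known. Every member could be named, and of other lists up to 4 called genes per direction with the smallest adjusted p, plus single genes chosen after their values were seen (stip1, cdc37 and col1a1a). The other 27 of 35 samples were not analysed here.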

Additional observations from a re-analysis of the deposited data

Results flagged for a closer look

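In 14 of 144 groups of 4 libraries 1 library stood apart from the other 3, meaning that its gap to the nearest of them, as a part of the group's whole range, was above the 95% critical value of Dixon's test. Chance alone flags about 1 group in 20. No test of a cause was made.

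klf1 library 1 was the highest of its genotype for 3 genes. It read 343 CPM for cct4, against 266 to 269 CPM in the other klf1 libraries (gap of 0.953 of the range), 402 CPM for cct7, against 290 to 304 CPM (0.854), and 1630 CPM for hspb1, against 1110 to 1150 CPM (0.902). klf1 library 4 was the lowest for dnajb2, with 38 CPM against 47.8 to 49.3 CPM (0.879), and for dnajc5ga, with 30.1 CPM against 39 to 40.9 CPM (0.849).

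Among WT hearts library 3 was the highest for cct3, with 384 CPM against 259 to 273 CPM (0.873), for cct7, with 385 CPM against 271 to 282 CPM (0.886), for dnajc15, with 84.9 CPM against 64.1 to 66 CPM (0.896), and for hspbap1, with 7.12 CPM against 4.14 to 4.41 CPM (0.886). The same library was the lowest for hspa4a, with 72.4 CPM against 131 to 141 CPM (0.886), and for dnajc11, with 75.9 CPM against 85.2 to 85.5 CPM (0.967). WT library 4 was the lowest for dnajb6b, with 188 CPM against 213 to 215 CPM (0.911), and for dnajc9, with 15.6 CPM against 18.4 to 18.9 CPM (0.867), and WT library 1 was the highest for dnaja2, with 412 CPM against 345 to 350 CPM (0.927).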

How the results depend on the processing

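DESeq2, its size factors under edgeR, limma-voom and TMM without the 50 most counted genes left every count of calls within 1.5 times its value. Library totals alone gave 6836 higher and 1398 lower genes (65.1% and 13.3% of those tested), 48 and 9 members, 22 and 4 J-domain, 5 and 0 BAG, 4 and 0 chaperonin and 2 and 0 Hsp90 genes, and 5 small heat shock genes, 1 heat shock factor and 1 other match higher. A log2 fold change of at least 1 left 1884 higher and 1614 lower genes, 7 and 9 members, 2 and 4 J-domain and 0 and 0 BAG genes, 2 Hsp70 and Hsp110 genes higher, and 0 Hsp90 and 0 chaperonin genes lower. Lower BAG calls numbered 1 with upper-quartile scaling or no filter. Leaving out each library in turn gave 17 to 19 members higher and 19 to 25 lower, 1 to 2 BAG and 0 to 1 Hsp90 genes lower. Of 43 called members, 25 kept the call in all 17 alternatives other than the fold threshold and the block (16 of 18 higher, 9 of 25 lower), and dnajb5 kept it in the 16 that could test it. Library totals are among these alternatives and favour higher calls. Leaving them aside, 16 of 18 higher and 17 of 25 lower calls were kept. For hspb9, hsp70.1 and dnajb5, tested only through the klf1 libraries, keeping the call is no separate evidence of a rise.

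Library totals raised the log2 fold change of every tested member, so values a little below 0 with TMM turned positive. Those that reversed were bag1 0.39, bag3 0.37, bag4 0.65, bag5 0.46, bag6 0.17, hsp70l 0.62, hspa12a 0.54, hsp90aa1.1 0.08, dnaja2 0.38, dnaja2l 0.37, dnajb12a 0.55, dnajb12b 0.03, dnajb1a 0.66, dnajb1b 0.45, dnajb2 0.71, dnajc1 0.61, dnajc24 0.57, dnajc5ga 0.01, dnajc7 0.59, dnajc8 0.54, cct4 0.27, cct5 0.2, cct6a 0.45, cct8 0.15, tcp1 0.59, hsf2 0.71, hspbap1 0.47 and hspb7 0.45. With upper-quartile scaling bag4 (0.01), dnajb1a (0.03), dnajb2 (0.07) and hsf2 (0.07) reversed, and with no filter or with at least 50 counts in 4 libraries dnajb2 (0.01) and hsf2 (0.02). Across left-out libraries the uncalled bag4 (-0.22 to 0.05), hsp70l (-0.34 to 0.07), cct3 (-0.09 to 0.18), cct7 (-0.05 to 0.21), hsf2 (-0.14 to 0.07), dnajb2 (-0.08 to 0.07), dnajb1a (-0.15 to 0.06) and hspbp1 (-0.01 to 0.18) changed sign. Leaving out WT library 3 and klf1 library 1 together, chosen after the data were seen, added calls on bag3 (-0.47), dnajb14 (0.41), dnajc17 (0.5), dnajc7 (-0.23) and cct6a (-0.25). With a pseudocount of 5 all 7 paralog ratios kept their direction. The labels pair no RNA libraries, but the count columns number them 1 to 4 in each genotype. The library numbers used here follow the order of the samples, and whether they equal the column numbers was not checked. Deviations from the genotype means correlated over genes at -0.08, 0.08, -0.19 and 0.09 between same-numbered libraries. Of the 4 klf1 libraries 2 correlated best with the WT library of their own number. The highest correlation between genotypes was 0.34, between klf1 library 1 and WT library 3, whose numbers differ. With the library number as a replicate block, added after the files were seen, 18 members were higher and 20 lower, with 0 BAG genes lower. The calls on bag1, bag6, dnaja2, dnaja2l and dnajc5aa were lost under the block and no direction turned. Depth limits genes of a few counts, such as hspb9, hsp70.1 and dnajb5 in WT hearts and the members that were not tested.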
